A study of Mus musculus with 9 samples.

Results

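Day 6 was the earliest of 3 days at which fibroblasts on their way to induced pluripotent stem cells were sampled, and at that day 2 knockdowns were set against 1 control. The comparison used 3 of the 9 libraries of the series and 12541 of the 12550 genes in the deposited table, namely those with a mean value of at least 20 over the 9 libraries. All 9 libraries came from mouse embryonic fibroblasts (MEFs, labelled strain C57Bl/6cJ) that were transfected with plasmids for c-Myc, Klf4, Sox2 and Oct4, the reprogramming factors, and were grown in serum-containing mouse embryonic stem cell medium with leukemia inhibitory factor. Each also received a pretroSuper construct expressing a short hairpin RNA (shRNA). The control hairpin was directed against luciferase, a gene the mouse does not have, and the knockdown hairpins against Hnrnpk or against the long noncoding RNA lincRNA-p21. RNA was extracted from the cultures on days 6, 9 and 12. Each library carries the label of merged replicates, and how many were merged is not given in the sources read. A bulk culture at this stage mixes cells that have and have not begun to reprogram, so fewer cells of a type and less RNA per cell cannot be told apart.

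Hnrnpk encodes an RNA- and DNA-binding protein of the poly(C)-binding kind, with roles in transcription, splicing and translation. lincRNA-p21, listed under the symbol Trp53cor1, is a p53-induced noncoding RNA transcribed next to Cdkn1a (p21), and it is known to bind the HNRNPK protein. In reprogramming, fibroblasts first divide faster, lose their contractile and matrix programs, gain epithelial genes and shift towards glycolysis, and the pluripotency genes follow later. p53, senescence and stress programs are known barriers to that course.

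With 1 merged library per arm and day there was no spread between replicates to measure, so all differences below are sizes without a test. A difference is the log2(value + 10) of a knockdown library minus that of the control library of the same day, and 2-fold means a difference of at least 1 on that scale. The values are the authors' normalized signal, not counts, so the depth behind them is unknown. The columns had been brought to nearly one distribution. With each column sorted from low to high, the gap between the highest and lowest column had a median over ranks of 1.67%. The 1163 values of 20000 or more took 484 distinct levels, so differences among the most abundant genes are steps between shared levels. On day 6, 102 genes of the control library, 65 of the Hnrnpk-knockdown library and 96 of the lincRNA-p21-knockdown library had values below 10. Both day 6 differences were taken from the same control library, so a value that is high or low in that library by itself enters both of them.

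The targeted genes were read first. Hnrnpk (ENSMUSG00000021546, mm10 chr13:58391142-58403343, minus strand) had a value of 31243 in the day 6 control, 11349 with its own hairpin and 31142 with the lincRNA-p21 hairpin. It was thus at 36.3% of control in its own arm and at 99.7% in the other. Trp53cor1 (ENSMUSG00000085912, a lincRNA gene at mm10 chr17:29057430-29079179, minus strand) had a value of 286.5 in the control, 90.5 with its own hairpin and 131 with the Hnrnpk hairpin. This left 31.6% of control in its own arm and 45.7% in the Hnrnpk arm, so the lincRNA was low in both knockdowns. Cdkn1a, the cyclin-dependent kinase inhibitor gene beside it, had values of 12063.5, 15118 and 14594 in control, Hnrnpk and lincRNA-p21 arms, or 125.3% and 121.0% of control. On days 9 and 12 Hnrnpk stood at 63.2% and 54.7% of control in its own arm, and Trp53cor1 at 51.5% and 38.8% in its own, so the Hnrnpk transcript was lowest against its control on day 6.

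The Hnrnpk arm departed from control further than the lincRNA-p21 arm. At least 2-fold higher were 569 genes with the Hnrnpk hairpin (4.54% of those compared) and 208 with the lincRNA-p21 hairpin (1.66%). At least 2-fold lower were 261 genes (2.08%) and 97 genes (0.773%). The SD over genes was 0.54 on the log2 scale in the Hnrnpk arm and 0.41 in the other, around medians of -0.02 and 0.02. Higher in both arms were 147 genes (1.17%), which made up 25.8% of the genes higher with the Hnrnpk hairpin and 70.7% of those higher with the lincRNA-p21 hairpin. Lower in both were 53 genes (0.423%), or 20.3% and 54.6%. Of the 147 genes, 102 had the larger difference in the Hnrnpk arm, and of the 53 genes 36 did. A single gene (0.00797%), Trdn, which encodes the muscle protein triadin, was 2-fold higher with the Hnrnpk hairpin and 2-fold lower with the lincRNA-p21 hairpin, on low values of 40, 92 and 14 in control, Hnrnpk and lincRNA-p21 libraries. No gene (0.0%) was the other way round. These shared counts describe differences from one common control library and carry no test.

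**Figure D1:**
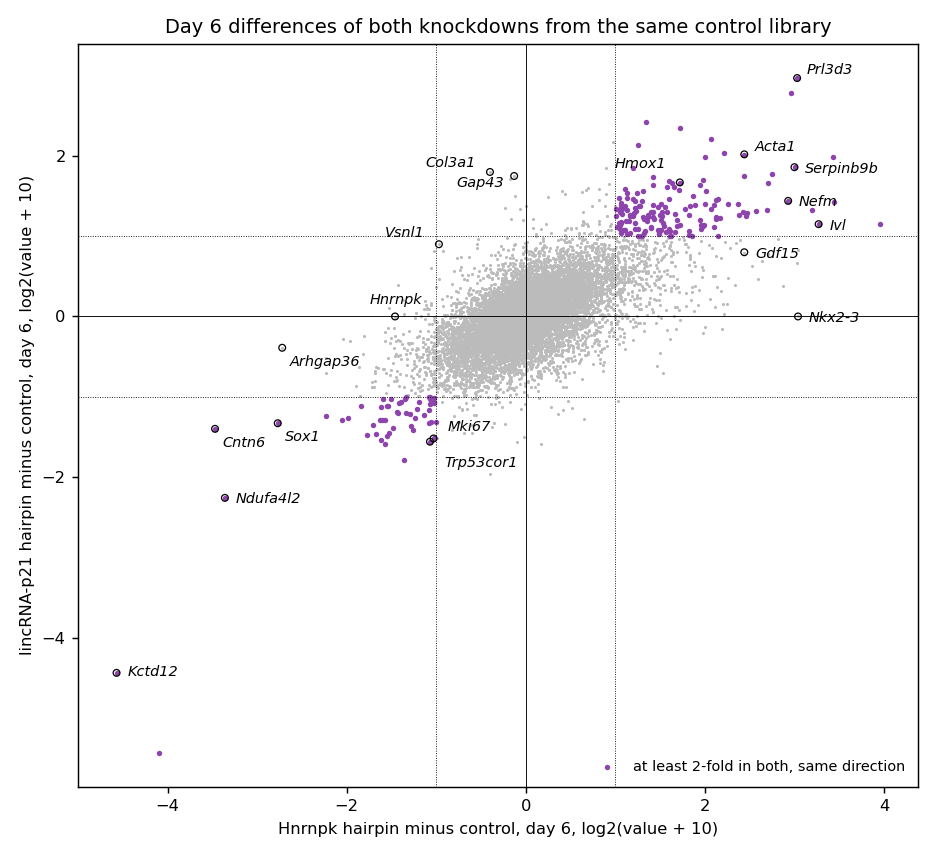
Each point is a gene, with its day 6 difference from control in the Hnrnpk arm (x axis) and the lincRNA-p21 arm (y axis), both in log2(value + 10), and dotted lines at 2-fold. Purple points are the 147 genes higher and the 53 genes lower in both arms, and open circles mark named genes. Both axes share the control library.

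The 12 named genes highest over control in both arms were chosen by the smaller of their 2 differences. Hmox1, heme oxygenase 1, an enzyme that breaks down heme and is induced by oxidative stress, had values of 786 in the control, 2609.5 with the Hnrnpk hairpin and 2520 with the lincRNA-p21 hairpin. Both knockdown libraries were about equally high, with log2 differences of 1.72 and 1.67. Acta1, skeletal muscle alpha-actin, had values of 51, 321.5 and 237, and differences of 2.44 and 2.02. Gpnmb, a lysosome-linked glycoprotein, stood at 257.5, 1434.5 and 893, with differences of 2.43 and 1.76. Wnt4, a secreted Wnt ligand, was the reverse in order, with 99.5 in the control, 322 in the Hnrnpk arm and 342.5 in the lincRNA-p21 arm (1.6 and 1.69). Bmper, a secreted regulator of BMP signalling, had 121, 468 and 359.5 (1.87 and 1.5). Chst1, a carbohydrate sulfotransferase, had 84.5, 300 and 272 (1.71 and 1.58).

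Some of these 12 genes had low control values. Eef1a2, the tissue-restricted form of translation elongation factor 1 alpha, had values of 23.5, 130 and 145, and Cntnap2, a neurexin-family adhesion protein, had 8, 107 and 47. Calcb, a calcitonin gene-related peptide gene, had 24.5, 128 and 127, and its paralog Calca, also among the 147, had 42, 129 and 118. All 4 were higher in both knockdown libraries than in the control by at least 2.46 times on the scale with the pseudocount. Prl3d3, a placental lactogen gene, had 11, 162 and 155 (log2 differences of 3.03 and 2.97). Serpinb9b, a serine protease inhibitor, had 172, 1449.5 and 651.5 (3.0 and 1.86), and Akr1c18, an aldo-keto reductase that degrades progesterone, had 1210, 3841 and 3716.5 (1.66 and 1.61). The last 3 genes belong to families of close copies, among which reads may have been split, so their identity is uncertain.

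On the low side, Kctd12, an auxiliary subunit of GABA-B receptors, had the largest differences of the named genes in both arms. Its values were 239 in the control and 0.5 and 1.5 in the Hnrnpk and lincRNA-p21 arms (-4.57 and -4.44). Ndufa4l2, a hypoxia-induced mitochondrial protein, had 1234, 111 and 250.5 (-3.36 and -2.26), and Aldoc, a glycolytic aldolase, had 1054.5, 336 and 357.5 (-1.62 and -1.53). Spock2, a matrix proteoglycan, had 1532.5, 518 and 540 (-1.55 and -1.49). In each of these the knockdown libraries lay well under the control, and for Aldoc and Spock2 they lay close to each other.

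Several genes better known from neurons or other lineages were on the same side. Grin1, the obligatory subunit of NMDA receptors, had 770, 235.5 and 273 (-1.67 and -1.46), and Sox1, a neural transcription factor of the same family as Sox2, had 287, 33.5 and 108 (-2.77 and -1.33). Cntn6, a neural adhesion molecule, had 101 in the control and 32 in the lincRNA-p21 arm and was listed at 0 in the Hnrnpk arm. Fgd5, an exchange factor for the GTPase Cdc42, had 976, 332 and 351 (-1.53 and -1.45), Klk1, a tissue kallikrein, had 1053, 405.5 and 298 (-1.36 and -1.79), and Ndrg2 had 152.5, 48 and 52 (-1.49 and -1.39). Of these 6 genes, Klk1 alone had its lowest value in the lincRNA-p21 arm. Pom121l2 had 252.5, 67 and 84.5 (-1.77 and -1.47). Hist1h2ao had 176.5, 47 and 63, but it belongs to a cluster of nearly identical histone genes and was listed at 0 in all 6 later libraries. The target Trp53cor1 is itself among the 53 genes lower in both arms.

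**Figure D2:**
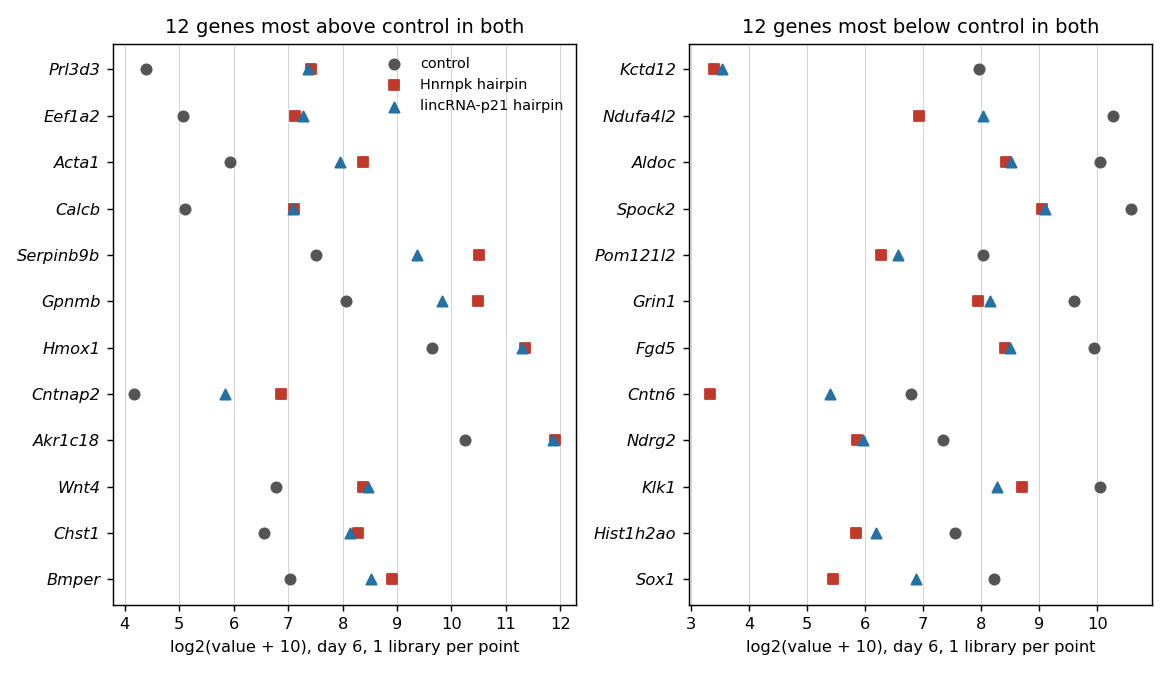
The 12 genes most above (left) and most below (right) control in both arms, ordered by the smaller of the 2 differences. The x axis is log2(value + 10) on day 6, and each point is 1 library, with the control as circles, the Hnrnpk arm as squares and the lincRNA-p21 arm as triangles. In every gene shown both knockdown points lie on one side of the control.

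Gene groups were read from 34 lists and 1 further list, each described by its median difference and its counts, beside all genes. Over all genes, 34.9% were above control in both arms and 35.1% below it in both. Lists of contractile, secreted, keratinocyte, interferon, antioxidant, stress and p53 genes had medians above 0 in both arms. Lists of reprogramming factors, mitosis, DNA replication, hnRNP proteins, glycolysis and Hedgehog genes had medians below 0 in both. For most of these the Hnrnpk arm had the larger median. On day 6 the lincRNA-p21 differences also ran with transcript length. Their median was 0.11 in the fifth of genes with the shortest transcripts (median 1505 bases) and -0.13 in the fifth with the longest (6962 bases), while in the Hnrnpk arm the same medians were -0.02 and -0.02. The Spearman correlation with length, across 12462 genes that are not independent replicates, was -0.23 in the lincRNA-p21 arm and 0.0 in the other. In the Hnrnpk and lincRNA-p21 arms it was -0.01 and 0.05 on day 9, and -0.29 and -0.23 on day 12. The day 12 differences of both arms thus ran with length, and the later-day medians given below were not centred on it. With differences centred within 5 classes of length, an alternative added after seeing the data, each of the day 6 counts given above stayed within 1.5 times.

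**Figure D3:**
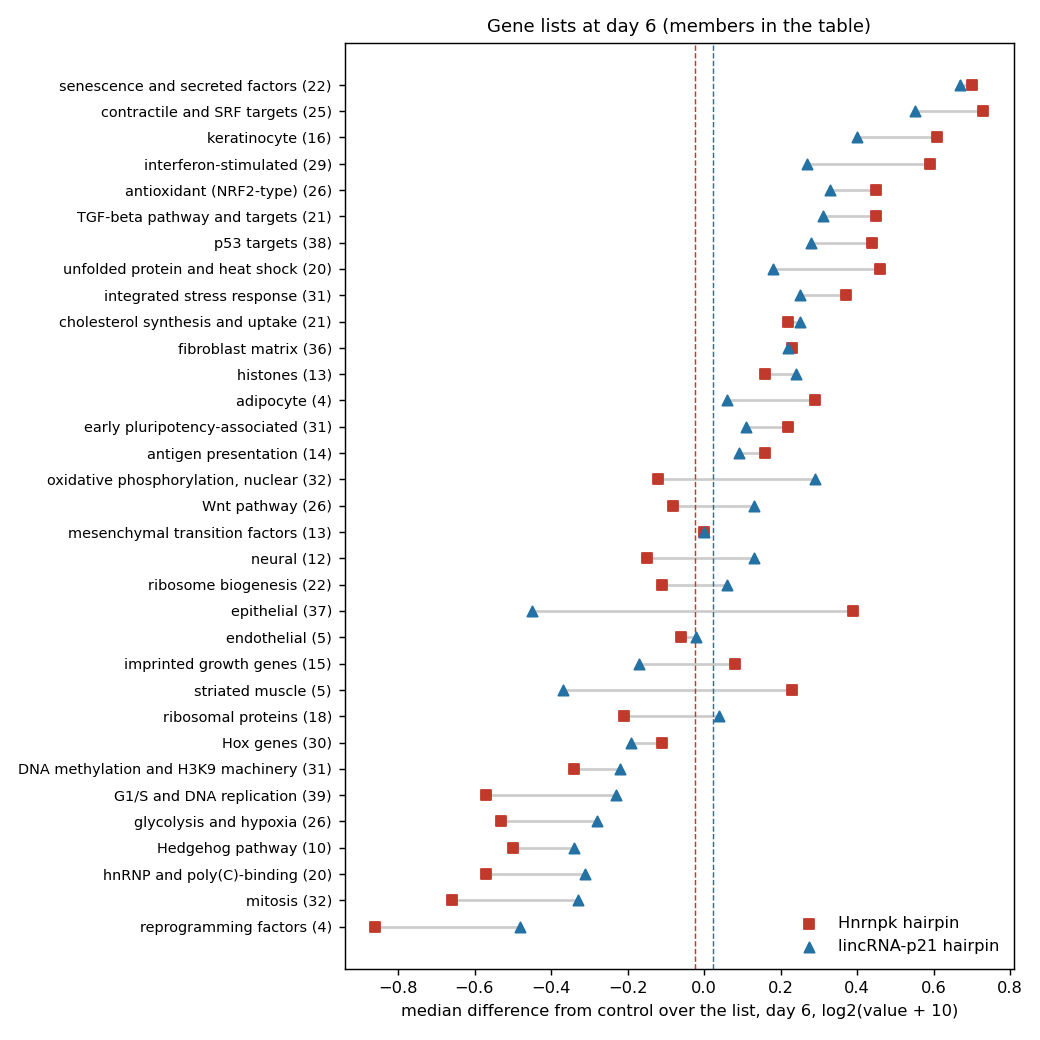
Median difference from control on day 6 over the members of each list in the table (number in brackets), in log2(value + 10), with the Hnrnpk arm as squares and the lincRNA-p21 arm as triangles. Dashed lines are the medians of all genes. The epithelial list has medians on opposite sides of 0, at 0.39 and -0.45.

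Genes of cell division were lower in both knockdowns on day 6. Of 32 mitosis genes, 32 were below control in the Hnrnpk arm and 31 in the lincRNA-p21 arm, with medians of -0.66 and -0.33. Of all genes, 52.5% and 47.2% were below control in these arms. Mki67, the proliferation antigen Ki-67, had values of 18599 in the control, 9130 with the Hnrnpk hairpin and 6483 with the lincRNA-p21 hairpin (-1.03 and -1.52). Top2a, the topoisomerase that untangles replicated chromosomes, had 9793, 5286.5 and 5599 (-0.89 and -0.81). Ccna2, cyclin A2, had 5726, 2984.5 and 3702.5 (-0.94 and -0.63), and Cenpf, a kinetochore protein, had 2357.5, 1343 and 990.5 (-0.81 and -1.24). Both knockdown libraries were under the control for all 4, and the transcripts of Mki67 and Cenpf are among the long ones, at 10061 and 11130 bases.

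Of 39 genes of the G1/S transition and DNA replication, 31 were below control in both arms, against 35.1% of all genes. The list medians were -0.57 and -0.23. The 13 licensing genes, which load the replicative helicase, had 12 members below control in both, and the 16 DNA synthesis genes had 14. The 10 cyclin, cyclin-dependent kinase and E2F genes of the list had 5 such members. E2f2, an activating E2F factor, had values of 857, 333 and 616.5 (-1.34 and -0.47), and Mcm5, a subunit of the helicase, had 4415, 2721.5 and 3949 (-0.70 and -0.16). The Hnrnpk library was the lower of the pair for both genes.

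The direction for these genes was not held on the later days. The mitosis medians were 0.45 and 0.32 on day 9 and 0.77 and 0.61 on day 12 in the Hnrnpk and lincRNA-p21 arms, and the replication medians were 0.33, 0.25, 0.56 and 0.54 in the same order. Of the 32 mitosis genes, 30 were below control in both arms on day 6 and above it in both arms on days 9 and 12, and 25 of the 39 replication genes were so, against 7.62% of all genes. Mki67 shows the course. Its control values were 18599, 9660 and 7575.5 on days 6, 9 and 12, while the Hnrnpk arm had 9130, 11284 and 9136 and the lincRNA-p21 arm 6483, 10848.5 and 9275. The control library thus had its highest value on day 6 and lay below both knockdown libraries afterwards. Each day has its own control library, shared by both arms, and the difference between days was not tested.

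**Figure D4:**
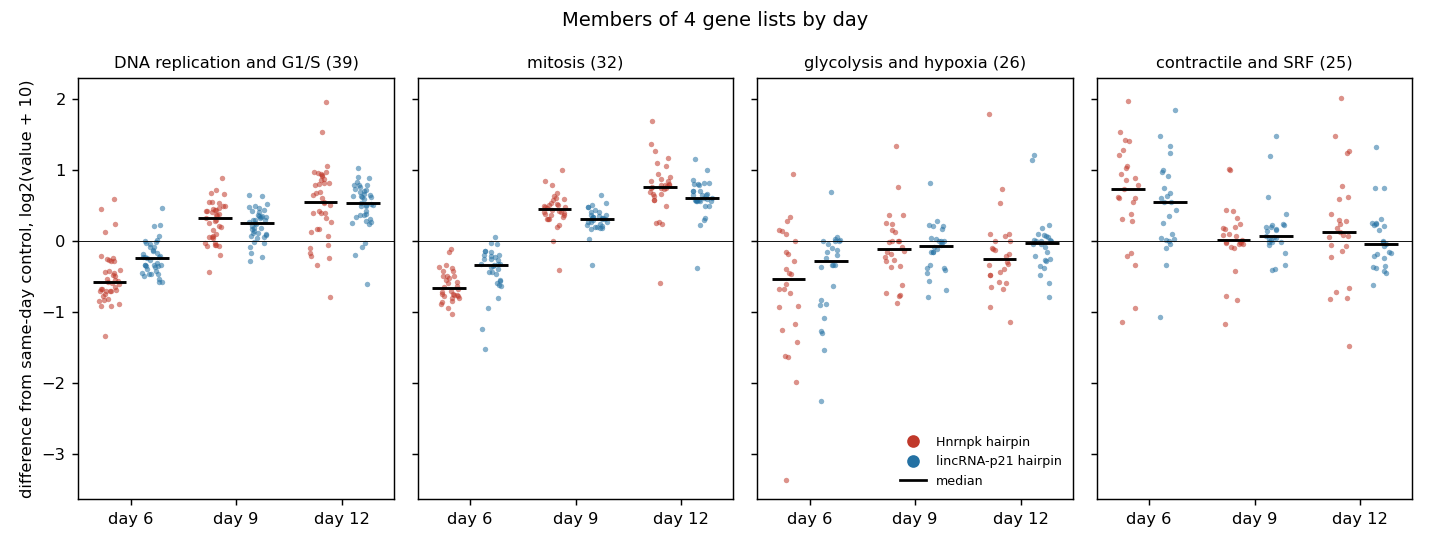
Differences from the same-day control, in log2(value + 10), for each member (points) of 4 lists, by day and arm, with the median as a bar. The replication and mitosis medians are below 0 on day 6 and above 0 on days 9 and 12 in both arms, and the glycolysis and contractile medians are nearer to 0 on the later days.

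Genes of glycolysis and the response to low oxygen were lower in both arms. The response runs through HIF transcription factors, which bind a short hypoxia response element, and it is known to support early reprogramming. Of 26 listed genes, 7 were 2-fold lower in the Hnrnpk arm and 5 in the lincRNA-p21 arm, against 2.08% and 0.773% of all genes. The 5 lower in both were Ndufa4l2, Pdk1, Aldoc, Egln3 and Bnip3, and none of the 26 was 2-fold higher. The list medians were -0.53 and -0.28. The 8 hypoxia-induced genes of the list had medians of -1.08 and -0.89, with 7 below control in both arms, and the 18 enzymes and transporters had medians of -0.42 and -0.14. Pdk1, a kinase that keeps pyruvate out of the mitochondrion, had values of 3791, 949.5 and 1571.5 in control, Hnrnpk and lincRNA-p21 libraries (-1.99 and -1.27). Egln3, an oxygen-sensing prolyl hydroxylase, had 4457.5, 1433.5 and 1813 (-1.63 and -1.29). Bnip3, a mitophagy receptor, had 2527.5, 938 and 1194 (-1.42 and -1.08). In all 3 the Hnrnpk library was the lowest. Ldha, lactate dehydrogenase A, had 48014, 21342 and 48014, so that the control and the lincRNA-p21 library shared one level. Control values of these genes were higher on the later days, with Egln3 at 11223 and 18590 on days 9 and 12, when the list medians were -0.11 and -0.07, then -0.26 and -0.02.

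Promoters were searched on both strands over the 250 bases before the start of each gene, for 9810 of the genes compared that matched the RefSeq table (GRCm38.p6, the mm10 assembly). The hypoxia response element was searched as ACGTG, a motif added after the values of these genes were seen. It was in 12 of 23 promoters of the glycolysis and hypoxia list (52.2%), in 14 of 36 of the genes lower in both arms (38.9%), in 13 of 104 of those higher in both (12.5%) and in 25.1% of all promoters. The promoter of Bnip3 (chr7:138909507-138909756, minus strand, GRCm38.p6, from RefSeq) is shown because its 2 matches, at 108 and 107 bases before the start, overlap in one palindrome, printed in capitals. A match describes letters in this window and shows neither binding nor a cause.
Bnip3: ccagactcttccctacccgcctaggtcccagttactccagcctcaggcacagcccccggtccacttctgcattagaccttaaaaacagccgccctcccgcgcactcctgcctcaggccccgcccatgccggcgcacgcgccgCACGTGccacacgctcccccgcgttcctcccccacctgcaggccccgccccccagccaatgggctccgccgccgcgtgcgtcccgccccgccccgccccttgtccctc

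Contractile genes were higher in both arms. They encode the actin and myosin apparatus of activated fibroblasts and are known targets of serum response factor (SRF), which binds the CArG box. Of 25 genes in the list of contractile and SRF targets, 8 were 2-fold higher in the Hnrnpk arm and 5 in the lincRNA-p21 arm. In both arms 4 were. The shares over all genes were 4.54%, 1.66% and 1.17%. In each arm 1 gene was 2-fold lower, and it was not the same gene in both. The medians were 0.73 and 0.55. The 14 contractile members proper had medians of 0.83 and 0.71, with 13 above control in both arms. Tagln, transgelin, had values of 1306 in the control, 3505 with the Hnrnpk hairpin and 3095.5 with the lincRNA-p21 hairpin (1.42 and 1.24). Acta2, smooth muscle alpha-actin, had 4777, 9806 and 13303 (1.04 and 1.48), and Myl9, a regulatory myosin light chain, had 361.5, 855 and 934.5 (1.22 and 1.35). Cnn1, calponin, had 47, 96 and 196 (0.90 and 1.85). The lincRNA-p21 library was the higher for 3 of these 4 genes.

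The 4 genes of that list known as YAP targets were above control in both arms as well, with medians of 1.48 and 0.58, and all 4 were 2-fold higher in the Hnrnpk arm and none in the other. Among them Ctgf, connective tissue growth factor, had 2908.5, 8447 and 5509, and Ankrd1 had 24, 123 and 42. The 7 immediate early genes had medians of -0.21 and 0.01, with 2 above and 2 below control in both arms. Egr1, an early growth response factor, had 3261, 1698 and 1556.5 (-0.94 and -1.06), low in both arms. On days 9 and 12 the medians of the whole list lay between -0.05 and 0.13.

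The CArG box was found in 5 of 19 promoters of this list (26.3%), in 6 of 104 promoters of genes higher in both arms (5.77%), in none of 36 of those lower in both (0.0%) and in 1.43% of all promoters. The 6 genes higher in both are Acta1, Fhl2, Lurap1l, Myl9, Ptprr and Tbc1d9. Acta1 (chr8:123894776-123895025, minus strand) and Myl9 (chr2:156775214-156775463, plus strand), both GRCm38.p6 from RefSeq, are shown with the CArG box in capitals, 73 and 161 bases before the start.
Acta1: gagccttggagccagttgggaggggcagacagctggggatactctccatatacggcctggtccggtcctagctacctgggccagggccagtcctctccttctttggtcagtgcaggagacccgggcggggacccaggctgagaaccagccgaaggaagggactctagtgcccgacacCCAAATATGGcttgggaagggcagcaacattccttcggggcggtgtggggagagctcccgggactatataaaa
Myl9: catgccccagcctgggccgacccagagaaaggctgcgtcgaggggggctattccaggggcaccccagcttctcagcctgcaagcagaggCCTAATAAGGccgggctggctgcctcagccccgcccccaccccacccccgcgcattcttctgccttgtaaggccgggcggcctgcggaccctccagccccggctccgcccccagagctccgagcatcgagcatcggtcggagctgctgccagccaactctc

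Secreted and matrix genes went with the contractile ones in part. There were 22 genes of senescence and its secreted factors. Of these, 7 were 2-fold higher in the Hnrnpk arm and 2 in the lincRNA-p21 arm, against 4.54% and 1.66% of all genes. In the Hnrnpk arm 1 was 2-fold lower, and the list medians in the 2 arms were 0.70 and 0.67. All 6 genes of extracellular proteolysis in that list were above control in both arms. Plau, urokinase, had values of 125, 463 and 236 in control, Hnrnpk and lincRNA-p21 libraries (1.81 and 0.87), and Il11, a profibrotic cytokine, had 19, 114.5 and 53 (2.10 and 1.12). The Hnrnpk library was the highest for both. Of the cell-cycle inhibitors, Cdkn2b (p15) had 543, 1964 and 916, and Cdkn2a, whose locus encodes p16 and p19, had 2523.5, 2379.5 and 2669.5, with differences of -0.08 and 0.08.

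The 21 genes of the TGF-beta pathway had medians of 0.45 and 0.31, which came mainly from the 10 targets (0.72 and 0.42, with 9 above control in both arms) and less from the 6 ligands (0.21 and -0.02) and 5 receptors (0.19 and 0.18). Of 36 fibroblast matrix genes, 6 were 2-fold higher in the Hnrnpk arm and 4 in the lincRNA-p21 arm. Over all genes these shares were 4.54% and 1.66%. Of the 36 genes, 2 were 2-fold higher in both arms. In the Hnrnpk arm 1 was 2-fold lower, and the list medians in the 2 arms were 0.23 and 0.22. The 2 genes higher in both were Thbs2, thrombospondin 2, with 4378, 9454 and 11339.5, and Col5a2, a fibrillar collagen chain, with 8332.5, 16783 and 21176.5. The collagens did not move as one. Col1a1 had 21817, 62313 and 35392.5 and was highest in the Hnrnpk arm, while Col3a1 had 19438.5, 14760 and 67808.5 and was highest in the lincRNA-p21 arm. Fn1, fibronectin, had 48139, 56845.5 and 48056.5, with differences of 0.24 and 0.00. The 13 mesenchymal transition genes had medians of 0.00 in both arms. Their 9 transcription factors had medians of -0.02 and -0.04, and their 4 markers 0.66 and 0.30. Of the 4 markers, 2 were 2-fold higher in the Hnrnpk arm and 0 in the other. Col1a1, Col3a1 and Fn1, which define the labelled fibroblasts, thus stood at 14760 or more in all 3 day 6 libraries.

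Stress programs were higher in both arms, and more so with the Hnrnpk hairpin. The integrated stress response acts through the factor ATF4, which binds amino acid response elements. Of its 31 genes, 6 were 2-fold higher in the Hnrnpk arm and 3 in the lincRNA-p21 arm, against 4.54% and 1.66% of all genes. None was 2-fold lower (2.08% and 0.773% of all genes), and the medians were 0.37 and 0.25. The 3 genes higher in both were Atf3, a stress-induced transcription factor (48, 242 and 148; differences of 2.12 and 1.45), Chac1, a glutathione-degrading enzyme (35, 193 and 95; 2.17 and 1.22), and Trib3, a pseudokinase that restrains ATF4 (45.5, 210.5 and 112.5; 1.99 and 1.14). In each the order was Hnrnpk arm, lincRNA-p21 arm, control. All 7 aminoacyl-tRNA synthetase genes were above control in both arms, with smaller medians of 0.22 and 0.26. Ddit3 (CHOP), a factor of prolonged stress, had 283, 728 and 425. The 20 genes of the unfolded protein and heat shock responses had medians of 0.46 and 0.18.

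The amino acid response element, searched as TGATGNAA, was in 7 of 25 promoters of the integrated stress response list (28%), in 5 of 104 of the genes higher in both arms (4.81%), in 1 of 36 of those lower in both (2.78%) and in 2.3% of all promoters. The Chac1 (chr2:119350992-119351241, plus strand) and Atf3 (chr1:191183334-191183583, minus strand) promoters, GRCm38.p6 from RefSeq, carry the same 8 letters on the opposite strand, in capitals, 193 and 110 bases before the start. They are shown because both genes were 2-fold higher in both arms.
Chac1: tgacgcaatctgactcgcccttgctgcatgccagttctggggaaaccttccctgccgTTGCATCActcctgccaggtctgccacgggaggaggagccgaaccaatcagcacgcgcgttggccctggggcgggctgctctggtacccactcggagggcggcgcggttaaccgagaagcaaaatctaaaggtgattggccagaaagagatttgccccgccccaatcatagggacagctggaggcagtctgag
Atf3: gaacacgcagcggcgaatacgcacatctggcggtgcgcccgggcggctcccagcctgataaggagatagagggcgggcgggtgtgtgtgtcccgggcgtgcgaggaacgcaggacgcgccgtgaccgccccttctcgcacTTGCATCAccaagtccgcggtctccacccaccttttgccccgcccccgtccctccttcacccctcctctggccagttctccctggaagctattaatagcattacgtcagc

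A list of 26 antioxidant genes of the kind that NRF2 regulates was added after Hmox1 and others had been seen, so its direction is not independent of that choice. In it, 6 genes were 2-fold higher in the Hnrnpk arm and 4 in the lincRNA-p21 arm, the 4 being higher in both. The shares over all genes were 4.54%, 1.66% and 1.17%, and the list medians were 0.45 and 0.33. Nqo1, a quinone reductase, had values of 386, 1744 and 1084 in control, Hnrnpk and lincRNA-p21 libraries (2.15 and 1.47). Srxn1, sulfiredoxin, had 304.5, 1128 and 619 (1.86 and 1.0), and Gsta1, a glutathione transferase with close copies, had 21.5, 163 and 65 (2.46 and 1.25). All 3 were highest in the Hnrnpk library. The antioxidant response element, searched as TGACNNNGC and also added later, was in 28.6% of the promoters of this list, in 8.65% of genes higher in both arms, in 19.4% of genes lower in both and in 13.8% of all promoters.

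Most p53 targets were above control in both arms, with the larger median in the Hnrnpk arm. Of 38 genes, 29 were above control with the Hnrnpk hairpin and 28 with the lincRNA-p21 hairpin. In both arms 27 were, against 34.9% of all genes. At least 2-fold higher were 8 with the Hnrnpk hairpin and none with the other, against 4.54% and 1.66% of all genes. The 1 gene 2-fold lower in each arm was the target Trp53cor1. The list medians were 0.44 and 0.28. The 9 apoptosis genes had medians of 0.77 and 0.31 and the 9 arrest genes 0.28 and 0.10. Gdf15, a secreted stress cytokine, had values of 77, 461 and 141 (2.44 and 0.80), and Mdm2, the ubiquitin ligase that p53 induces and that degrades it, had 3241, 7434 and 5063 (1.2 and 0.64). Both genes had their highest value in the Hnrnpk library and an intermediate one in the lincRNA-p21 library.

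Interferon-stimulated genes were higher in both arms, and the 3 named here had low absolute values. Of 29 genes, 4 were 2-fold higher in the Hnrnpk arm and 5 in the lincRNA-p21 arm, against 4.54% and 1.66% of all genes. In both arms 3 were, against 1.17%, and none was 2-fold lower in either. The medians were 0.59 and 0.27. Isg15, a ubiquitin-like modifier, had values of 11, 72.5 and 58 in control, Hnrnpk and lincRNA-p21 libraries (1.97 and 1.70). Irf7, a transcription factor that amplifies the response, had 36.5, 131 and 118 (1.6 and 1.46), and Gbp2, a guanylate-binding protein with close copies, had 49, 114 and 132.5 (1.07 and 1.27). The control was the lowest for all 3. The medians of the list were larger on later days in the Hnrnpk arm (0.78 and 1.05), and 0.41 and 0.25 in the other. Isg15 reached 282.5 on day 12 with the Hnrnpk hairpin, with a control of 20.5. The 14 antigen presentation genes had day 6 medians of 0.16 and 0.09.

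The interferon-stimulated response element (ISRE), searched as GAAA, any 2 bases and GAAA, was in 11 of 24 promoters of the interferon list (45.8%), in 11 of 104 of the genes higher in both arms (10.6%), in 2 of 36 of those lower in both (5.56%) and in 3.09% of all promoters. The Isg15 promoter (chr4:156200819-156201068, minus strand, GRCm38.p6, from RefSeq) is shown for its 3 overlapping matches, which start 78, 72 and 66 bases before the gene and are printed in capitals as 1 run.
Isg15: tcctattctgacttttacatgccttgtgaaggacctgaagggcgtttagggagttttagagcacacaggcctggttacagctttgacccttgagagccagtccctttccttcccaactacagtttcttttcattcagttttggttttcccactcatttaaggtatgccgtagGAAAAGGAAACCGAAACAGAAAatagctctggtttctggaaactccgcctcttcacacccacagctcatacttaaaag

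The sterol response element, searched as TCACNCCAC, was in 1 of 104 promoters of genes higher in both arms (0.962%), in 2 of 36 of genes lower in both (5.56%) and in 1.26% of all promoters. The 21 cholesterol genes had medians of 0.22 and 0.25 with no member 2-fold from control in either direction, and 1 of their 13 promoters held the element (7.69%). The 15 enzymes of the pathway were above control in both arms in 13 cases.

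The 4 reprogramming factors were below control in both arms, with medians of -0.86 and -0.48. Myc had values of 56808.5 in the control, 27901 with the Hnrnpk hairpin and 26881 with the lincRNA-p21 hairpin (-1.03 and -1.08). Klf4 had 56808.5, 27901 and 42046.5 (-1.03 and -0.43), Pou5f1 (Oct4) had 27901, 17258.5 and 19387.5 (-0.69 and -0.52), and Sox2 had 19009, 12848 and 15392.5 (-0.56 and -0.30). The control was the highest for all 4. Myc and Klf4 had the same level in the control and the same level in the Hnrnpk arm, which was also the Pou5f1 control level. Their equal differences of -1.03 are thus a step between shared levels of the normalized values. The table has 1 row for each factor, so transcripts from the delivered plasmids and from the chromosomal genes are joined, and a share of each cannot be given.

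Core pluripotency genes had low values on day 6. The 31 genes of the early pluripotency list had medians of 0.22 and 0.11. The list is mixed, and its 7 surface markers include the epithelial Cdh1 and Epcam and the fibroblast marker Thy1. Those 7 had medians of 0.67 and -0.42, the 11 transcription factors 0.31 and 0.09, and the other 13 genes -0.14 and 0.16. Nanog, a core factor, had values of 179.5, 143 and 121, slightly lower in both arms (-0.31 and -0.53). Esrrb, a nuclear receptor of the stem cell state, had 1, 10 and 8, Tdgf1, the Nodal co-receptor Cripto, had 7, 20 and 36.5, and Lin28a, an RNA-binding protein, had 1, 0 and 1. These 3 genes stood above control in both arms on days 9 and 12, Tdgf1 with 204.5, 3362 and 2465 on day 12 in control, Hnrnpk and lincRNA-p21 libraries. The medians of this list were 0.91 and 0.46 on day 9 and 1.21 and 0.92 on day 12.

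Enzymes of DNA methylation and histone H3 lysine 9 methylation, known barriers or helpers of reprogramming, had medians of -0.34 and -0.22 over 31 genes. Tet2, which oxidizes 5-methylcytosine, had values of 4977, 2071.5 and 1853 (-1.26 and -1.42), and its relative Tet1 had 404, 199 and 135 (-0.99 and -1.51). Dnmt1, the maintenance methyltransferase, had 8941.5, 5069 and 6252, and Uhrf1, which recruits it, had 4839, 2739 and 3439. For all 4 both knockdown libraries were under the control. Setdb1, an H3K9 methyltransferase, had 3307, 2436 and 2922 (-0.44 and -0.18). Tet2 has a long transcript of 9179 bases.

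The 20 hnRNP and poly(C)-binding genes had medians of -0.57 and -0.31, and without Hnrnpk itself the other 19 had -0.54 and -0.31. Of these 19 genes, 16 were below control in both arms, against 35.1% of all genes. Pcbp1, a close relative of Hnrnpk, had values of 17231.5, 11066 and 13879.5 (-0.64 and -0.31), and Pcbp2 had 39323, 25215.5 and 48035 (-0.64 and 0.29). On days 9 and 12 the list medians were above 0, at 0.17 and 0.13, then 0.13 and 0.27. The 10 Hedgehog genes had medians of -0.50 and -0.34, and Gli1, the transcription factor that reads out the pathway, had 305, 85.5 and 162 (-1.72 and -0.87).

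Epithelial genes separated the arms. Of 37 genes, 28 were above control in the Hnrnpk arm and 33 below it in the lincRNA-p21 arm, with medians of 0.39 and -0.45. Of all genes, 47.1% were above control in the Hnrnpk arm and 47.2% below it in the lincRNA-p21 arm. The Hnrnpk arm was not uniform, with 8 genes below control. At the 2-fold threshold it had 2 genes higher and 2 lower, and the lincRNA-p21 arm had none either way. Cdh1, Epcam, Cldn4 and Crb3, given below, were all above control in the Hnrnpk arm, so they do not show its lower members. Taken directly, without the control, the lincRNA-p21 library was below the Hnrnpk library for 34 of the 37, 11 of them by 2-fold, with a median difference of -0.63. Over all genes the median of this difference was 0.04. The lincRNA-p21 library was 2-fold lower than the Hnrnpk library for 252 of all genes (2.01%) and 2-fold higher for 112 (0.893%). Cdh1, E-cadherin, the adhesion molecule of epithelia, had values of 772.5 in the control, 1235 with the Hnrnpk hairpin and 553 with the lincRNA-p21 hairpin (0.67 and -0.47). Epcam had 284, 491 and 209 (0.77 and -0.42), and the tight junction gene Cldn4 had 32, 115 and 27.5 (1.57 and -0.16). Crb3, which sets apical polarity, had 29.5, 82.5 and 26.5 (1.23 and -0.11). The control lay between the knockdown libraries for Cdh1 and Epcam and close to the lincRNA-p21 library for Cldn4 and Crb3. By day 12 Cdh1 was at 2195, 4971 and 2396, and the list medians were 0.45 in the Hnrnpk arm and -0.25 in the other on day 9, and 0.31 and -0.23 on day 12.

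Keratinocyte genes, a related set, had medians of 0.61 and 0.40 over 16 genes. At least 2-fold higher were 6 in the Hnrnpk arm and 1 in the lincRNA-p21 arm, against 4.54% and 1.66% of all genes. Ivl, involucrin, a protein of the cornified envelope, had values of 8.5, 168.5 and 31 (3.27 and 1.15). Krt5, a basal keratin, had 8, 39.5 and 18. Both genes stood highest in the Hnrnpk library.

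Some genes were far from control in one arm and near it in the other. With the Hnrnpk hairpin, Nkx2-3, a homeobox factor, had values of 15 in the control, 196 in its arm and 15 in the lincRNA-p21 arm. Cd68, a lysosomal membrane protein, had 120.5, 780 and 171, Loxl4, a lysyl oxidase, had 576, 2959 and 758, and Akr1c14, an aldo-keto reductase with close copies, had 270.5, 1279 and 302. On the low side of the same arm, Arhgap36, an activator of Hedgehog signalling, had 2628, 390.5 and 2005.5, Usp11, a deubiquitinase, had 597, 145.5 and 483, and Cited1, a transcriptional co-regulator, had 739, 241.5 and 597. For all 7 the lincRNA-p21 library stayed within 0.5 of the control on the log2 scale, since that limit chose them. Nkx2-3 kept its values on days 9 and 12 in the Hnrnpk arm, at 176.5 and 192, with 17 and 11.5 in the lincRNA-p21 arm.

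With the lincRNA-p21 hairpin the matching genes on the high side included Col3a1, described above, and Col4a5, a basement membrane collagen, with 2554, 2267 and 8370. Gap43, a growth-cone protein, had 772, 703 and 2620, Pcdh10, a protocadherin, had 1767, 2093.5 and 4987.5, and Lars2, the mitochondrial leucyl-tRNA synthetase, had 1497, 1991 and 4454. On the low side Zfp871, a zinc finger gene, had 1044.5, 890.5 and 407.5, and Zbed6, a transcriptional repressor whose gene lies within an intron of another, had 4194.5, 3475 and 1912.5. Col17a1, a hemidesmosome collagen of epithelia, had 224, 289.5 and 90.5. Zfp871 and Zbed6 have transcripts of 10851 and 10156 bases. On days 9 and 12 Zfp871 was back near control, at 1004 against 1009.5 and 946 against 1024.5, and Col3a1 at 34933 against 30018 and 21757.5 against 24187.5.

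Some genes lay on opposite sides of the control. Ifi205, an interferon-inducible gene with close copies, had values of 52, 169 and 28 (1.53 and -0.71), and Serpinb3a, a protease inhibitor with close copies, had 63.5, 193 and 38 (1.47 and -0.61). Ccnd2, cyclin D2, had values of 33958.5, 51250 and 22678 (0.59 and -0.58), and the simple-epithelial keratin Krt7 had 76.5, 135.5 and 47.5 (0.75 and -0.59). Vsnl1, a neuronal calcium sensor, was the reverse with 174.5, 84.5 and 333.5 (-0.97 and 0.90), and so was Il7r, the receptor of interleukin 7, with 66.5, 27.5 and 125 (-1.03 and 0.82).

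Markers of other lineages were read to check the labelled cells. Of 14 macrophage markers, Cd68 and Laptm5 were compared, and the others were not analysed here. The 5 of 11 endothelial markers in the table had medians of -0.06 and -0.02, the 4 of 9 adipocyte markers 0.29 and 0.06, and the 5 of 12 striated muscle markers 0.23 and -0.37. Of these 5 muscle markers, 2 were 2-fold higher in both arms and 1 was 2-fold lower in both. The 12 neural markers had medians of -0.15 and 0.13 but mixed directions. The neurofilament genes Nefl (325.5, 1842 and 808.5) and Nefm (65.5, 564 and 195) were high in both arms, Tubb3, neuronal tubulin, was too (839, 1630 and 1878), and Sox1 was low in both. Their part in other results was not tested. The 13 mitochondrially encoded genes were not analysed here.

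Nuclear genes of oxidative phosphorylation were another list on which the arms differed. Of 32 genes, 29 were above control in the lincRNA-p21 arm and 12 in the Hnrnpk arm, with medians of 0.29 and -0.12. Of all genes, 52.3% and 47.1% were above control in these arms. In the lincRNA-p21 library 31 of the 32 were higher than in the Hnrnpk library. The median difference between these 2 libraries was 0.37, against 0.04 over all genes. The other housekeeping lists had medians, in the Hnrnpk and lincRNA-p21 arms, of -0.21 and 0.04 for the 18 ribosomal protein genes in the table, -0.11 and 0.06 for the 22 ribosome biogenesis genes, and 0.16 and 0.24 for the 13 histone genes. Oxidative phosphorylation genes have short transcripts, and within 5 classes of length their median in the lincRNA-p21 arm was 0.19, and that of the ribosomal protein genes -0.07. The 15 imprinted growth genes had medians of 0.08 and -0.17, and the 30 Hox genes -0.11 and -0.19. The 26 Wnt pathway genes had medians of -0.08 and 0.13, and 3 were 2-fold higher in both arms, against 1.17% of all genes. These were the ligand Wnt4, the receptor Fzd10 (77, 219.5 and 176.5) and the feedback target Axin2 (110, 291 and 241).

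The genes set apart on day 6 were then followed in the 6 later libraries, which entered their choice through the filter on the mean over 9 libraries and not through any difference. The 147 genes higher in both arms had day 6 medians of 1.52 and 1.29 in the Hnrnpk and lincRNA-p21 arms. On day 9 the medians were 0.73 and 0.38, with 91.8% and 83.0% of the genes above control, against 50.8% and 52.6% of all genes. On day 12 they were 0.70 and 0.16, with 87.1% and 65.3% above control, against 48.0% and 50.2%. At least 2-fold higher on day 9 were 49 and 24 of the 147 genes, against 2.54% and 0.845% of all genes, and on day 12 there were 50 and 13, against 3.76% and 1.2%. The differences thus kept their side for most genes in both arms and were smaller, with the smallest median in the lincRNA-p21 arm on day 12.

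The 53 genes lower in both arms had day 6 medians of -1.42 and -1.26. On day 9 the medians were -0.61 and -0.38, with 81.1% below control in each arm, against 48.7% and 46.6% of all genes. On day 12 they were -0.56 and -0.34, with 73.6% and 75.5% below, against 51.7% and 49.4%. At least 2-fold lower were 14 and 6 genes on day 9 (1.33% and 0.239% of all genes) and 18 and 3 on day 12 (2.46% and 0.271%). On each day both arms were set against one control library, so the arms are not independent of each other.

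Few genes were 2-fold from control in both arms on all 3 days. The higher ones numbered 8, namely AL929563.1, Axin2, Calca, Fzd10, Gbp2, Nefl, Nefm and Syt13, a synaptotagmin. Nefl had control values of 325.5, 192 and 158.5 on days 6, 9 and 12, values of 1842, 1061.5 and 714 in the Hnrnpk arm and of 808.5, 459 and 335.5 in the lincRNA-p21 arm. Axin2 had 110, 8 and 10 in the control, 291, 52.5 and 56 with the Hnrnpk hairpin and 241, 41.5 and 33.5 with the other, with all 3 lower on the later days. The 1 lower gene was Aatk, a kinase gene, with 145, 467 and 628 in the control, 56, 177.5 and 183 with the Hnrnpk hairpin and 54.5, 211.5 and 285 with the other. Of the 147 genes, 3 turned to the other side of control in both arms on both later days (Cdo1, Ppap2a and Serpinb7). Of the 53, 3 did so (Amd-ps3, Mki67 and Rps2-ps13). Of the 4379 genes above control in both arms on day 6, 625 went below it in both later (4.98% of all genes). Of the 4401 genes below it in both arms, 956 went above (7.62% of all genes). The genes of these small groups were named after their values were seen.

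**Figure D5:**
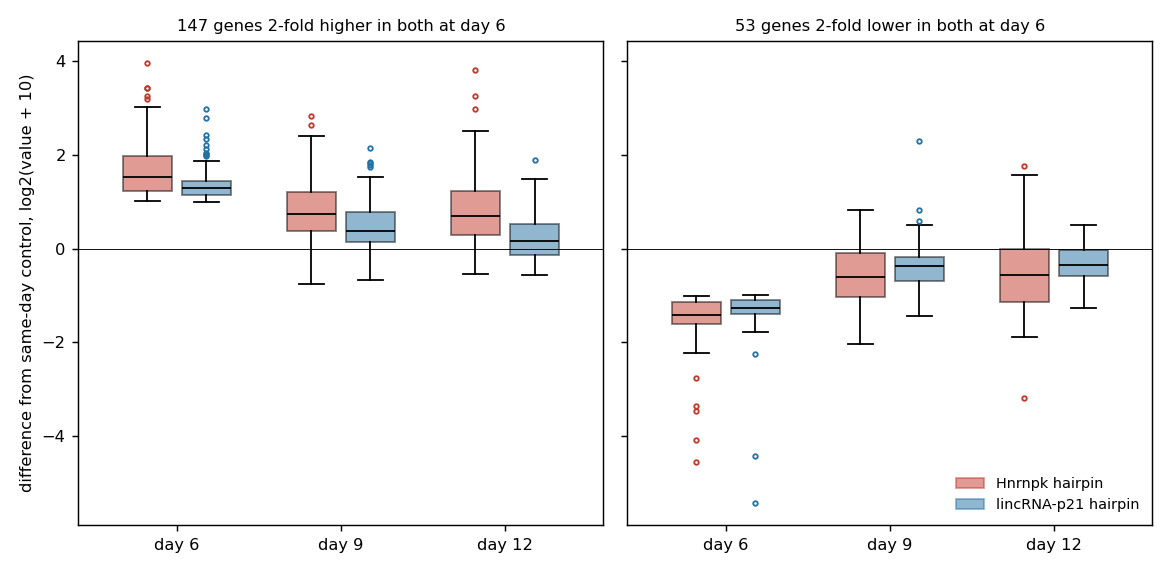
Differences from the same-day control, in log2(value + 10), of the 147 genes higher (left) and the 53 genes lower (right) in both arms on day 6, by day and arm. Boxes span the quartiles with the median as a line, whiskers reach to 1.5 times the box height, and points lie beyond. Day 6 chose the genes, and on days 9 and 12 the medians are nearer to 0 on the same side.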

How the data were processed

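RNA from reprogramming cultures was extracted with TRIzol and sequenced on Illumina libraries, per the labels' protocols. The deposited table holds 1 column per group, 9 in all, of the authors' normalized signal per gene, in steps of 0.5. The submitters' processing notes name RSEM 1.2.12, Bowtie 1.0.1 and mm10, without their roles, and the normalization method was not given in the sources used here. Column totals differed by at most 0.025%, so a change in total RNA cannot be seen, and the depth per sample is unknown.

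Differences of log2(value + 10) were computed in Python 3.11.15 (pandas 2.3.3, numpy 2.4.6) for genes with a mean of at least 20, which left out 9 genes. No test was made, since there was 1 library per arm, and the calculation was checked on simulated data. Where 23 rows repeated a symbol, lists used the row with the higher mean. Lengths, types and positions came from GENCODE M21 or RefSeq annotation on mm10.

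Genes were named by these rules, among genes with a value of at least 100 in a day 6 library: the targets, the 12 genes each way with the largest smaller difference in both arms, the 8 each way large in one arm and within 0.5 in the other, the 5 each way on opposite sides, and up to 4 prominent members per list plus members that define a list. The values of 1 list member are not reported here, a few others were left unnamed and some list members at low values were added for their role. The members and lists were chosen with earlier results of these data known. Alternatives were pseudocounts of 1 and 50, a fold of 1.5, other filters, and centring on the median or, added later, within 5 classes of length.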

Additional observations from a re-analysis of the deposited data

Results flagged for a closer look

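For 4 lists with day 6 medians of at least 0.2 in size, and for 1 gene with a value of at least 100 on day 6, at least 2-fold from control on day 6 and at least 0.2 beyond it the other way later, both arms had one direction on day 6 and the opposite direction on days 9 and 12. Many genes with smaller differences or lower values did the same (7.62% of all genes from below to above control and 4.98% from above to below). The difference between days was not tested, and each day has its own control library. The mitosis list had day 6 medians of -0.66 in the Hnrnpk arm and -0.33 in the lincRNA-p21 arm, and later medians of 0.45, 0.32, 0.77 and 0.61. The G1/S and DNA replication list had -0.57 and -0.23, and later medians of 0.33, 0.25, 0.56 and 0.54. The hnRNP and poly(C)-binding list had -0.57 and -0.31 on day 6 and 0.17, 0.13, 0.13 and 0.27 later. The TGF-beta pathway list had 0.45 and 0.31 on day 6 and -0.19, -0.07, -0.13 and -0.18 later. The gene Ppap2a, which encodes a lipid phosphatase, had day 6 differences of 1.16 and 1.26, on values of 441, 1001 and 1070.5 in control, Hnrnpk and lincRNA-p21 libraries. On day 9 its values were 783, 652.5 and 650, and on day 12 they were 1206, 942.5 and 848.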

How the results depend on the processing

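No paired analysis was possible because each arm and day has 1 merged library with no replicate number, and for the same reason no replicate could be left out. The ribosomal protein median in the lincRNA-p21 arm changed sign, from 0.04 to -0.07, when centred within 5 classes of length, and among the alternatives run no other list median, follow-up median or named gene with a difference other than 0.00 did. The counts depended on the pseudocount, the threshold and the filter. With a pseudocount of 50, the Hnrnpk arm had 350 genes higher and 139 lower, the lincRNA-p21 arm 103 and 49, both arms together 62 and 28, none in opposite directions (0), and the lincRNA-p21 library was higher than the Hnrnpk library for 47 genes and lower for 145. The medians that moved were those of the genes higher in both on day 9 (0.53 and 0.25 in the Hnrnpk and lincRNA-p21 arms) and day 12 (0.52 in the Hnrnpk arm), and of the genes lower in both on day 12 in the Hnrnpk arm (-0.42). At 1.5-fold, the counts were 1440 and 1183, 880 and 704, 539 and 338, 8 and 8 in opposite directions, and 762 and 950. With a mean of at least 100, the lincRNA-p21 arm had 131 genes higher, both arms 90, none (0) in opposite directions, and 71 were higher with lincRNA-p21 than with Hnrnpk. Opposite directions held 2 genes with a pseudocount of 1 and none (0) when a value of at least 100 in a day 6 library was required, an alternative added after seeing the data. The lower counts under a higher pseudocount or mean follow from smaller fold changes of low genes and from fewer genes compared. Without the filter, or centred on the median or within 5 classes of length, all counts stayed within 1.5 times. Of 66 list medians, 8 moved by over 0.1 with a pseudocount of 50 and 7 within 5 classes of length. Depth is unknown, so values near 10 have no stated precision.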
